A study of Mus musculus with 6 samples.

Results

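The 10 transcripts described here encode inflammatory and regulatory cytokines, namely Tnf, Il1a, Il1b, Il1rn, Il6, Il10, Il15, Il18, Tgfb1 and Osm. They were chosen by gene symbol, and they are 10 of the 24940 genes in the table of expression values. Cytokines are secreted proteins that carry signals between cells, and macrophages are a main source of several of them. TNF, IL-1 and IL-6 are known to promote osteoclast formation in inflamed bone, whereas IL-10 and the IL-1 receptor antagonist, the product of Il1rn, act against inflammatory signals. IL-1β and IL-18 are made as inactive precursors that caspase-1 cuts, and TGF-β1 is secreted in a latent complex that has to be opened before it can bind its receptors.

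The cells were primary bone marrow-derived macrophages (BMMs), which are osteoclast precursors, taken from C57BL/6 mice aged 6 to 8 weeks according to the sample labels, whereas the methods of the study describe ICR mice. All cultures were kept in M-CSF, the growth factor that macrophages need, at 30 ng/mL for 3 days. The -R cultures received nothing else, the +R cultures received RANKL, the cytokine that drives osteoclast formation, at 100 ng/mL, and the R+LE cultures received RANKL at 100 ng/mL with the leaf extract (LE) of Abeliophyllum distichum at 10 μg/mL. LE is a methanol extract and so a mixture of compounds, and the sources used here name no vehicle for the sequenced cultures. RNA-seq gave 2 libraries for each condition, and no source used here says whether these came from separate cultures or animals, so p-values measure the spread between libraries, which may be technical.

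The libraries held between 29390204 and 34846361 mapped reads. The labelled cell type fitted its markers, since the summed level of 8 macrophage markers was 6732 to 7319 RPKM in -R, 2692 to 3455 RPKM in +R and 3764 to 4206 RPKM in R+LE. Lyz2 made up most of this sum, with means of 5317, 2132 and 3060 RPKM, so the sum mainly followed Lyz2. Adgre1, Cd14, Mertk and Fcgr1 were also lowest in +R, but Fcgr1 stayed near its +R level in R+LE (68.8, 1.64 and 1.85 RPKM). Csf1r and Cd68 were lowest in R+LE, at 185 and 336 RPKM. Itgam went the other way, with means of 70.5, 90.2 and 104 RPKM. The summed level of 9 osteoclast markers was 43.4 to 45 RPKM in -R, 1894 to 2161 RPKM in +R and 340 to 393 RPKM in R+LE, and all 9 were called, as higher with RANKL and as lower with LE, by the test described below. Markers of neutrophils were present in the -R libraries, where the 7 of them summed to 16.1 to 18.1 RPKM, against 0.66 to 0.816 RPKM in +R and 0.564 to 2.53 RPKM in R+LE. The 5 B cell markers summed to 1.57 to 1.96 RPKM in -R and to at most 0.124 RPKM in the RANKL-treated libraries, and the summed markers of T cells, NK cells and mast cells did not exceed 0.332 RPKM in any library. The 5 dendritic cell markers summed to 1.65 to 2.40 RPKM in -R, 0.851 to 1.12 RPKM in +R and 0.109 to 0.213 RPKM in R+LE. Of these, Zbtb46 went the other way with RANKL, with means of 0.0855, 0.8275 and 0.146 RPKM in -R, +R and R+LE. It made up most of the +R sum, and the means of Flt3, Ccr7, Cd209a and Siglech were lower in +R than in -R. The 6 stromal markers summed to 14.9 to 16.5, 10.4 to 14.6 and 7.59 to 8.62 RPKM, and the 4 erythroid markers to at most 0.583 RPKM.

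Levels are given in RPKM, a unit that divides the reads of a gene by the length of its transcript and by the depth of the library, so that genes of different length can be compared. In the cells without RANKL, Tgfb1 was the most abundant of the 10 transcripts at 131 ± 9.78 RPKM (mean ± SD, n = 2), followed by Il1rn at 32.9 ± 0.508, Il18 at 6.47 ± 1.20, Tnf at 5.81 ± 0.670, Il15 at 3.99 ± 0.129 and Osm at 2.87 ± 0.137 RPKM. Il10 at 0.903 ± 0.129, Il1b at 0.522 ± 0.0198, Il1a at 0.111 ± 0.00919 and Il6 at 0.079 ± 0.112 RPKM stood at the lower end. The libraries of Il18 and Tnf overlapped, as did those of Il1a and Il6, and all other neighbours in this order were separated. In +R, Tgfb1 and Il1rn were followed by Il15 at 5.20 ± 0.181 RPKM and Il18 at 3.78 ± 0.648 RPKM, and the libraries of Osm, Il1b and Il10 overlapped from one to the next. In R+LE the order of the 5 most abundant transcripts was Tgfb1, Il1rn, Il18, Tnf and Il15, as in -R, with overlapping libraries for Tnf and Il15 and for Il10, Osm and Il1b.

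**Figure D1:**
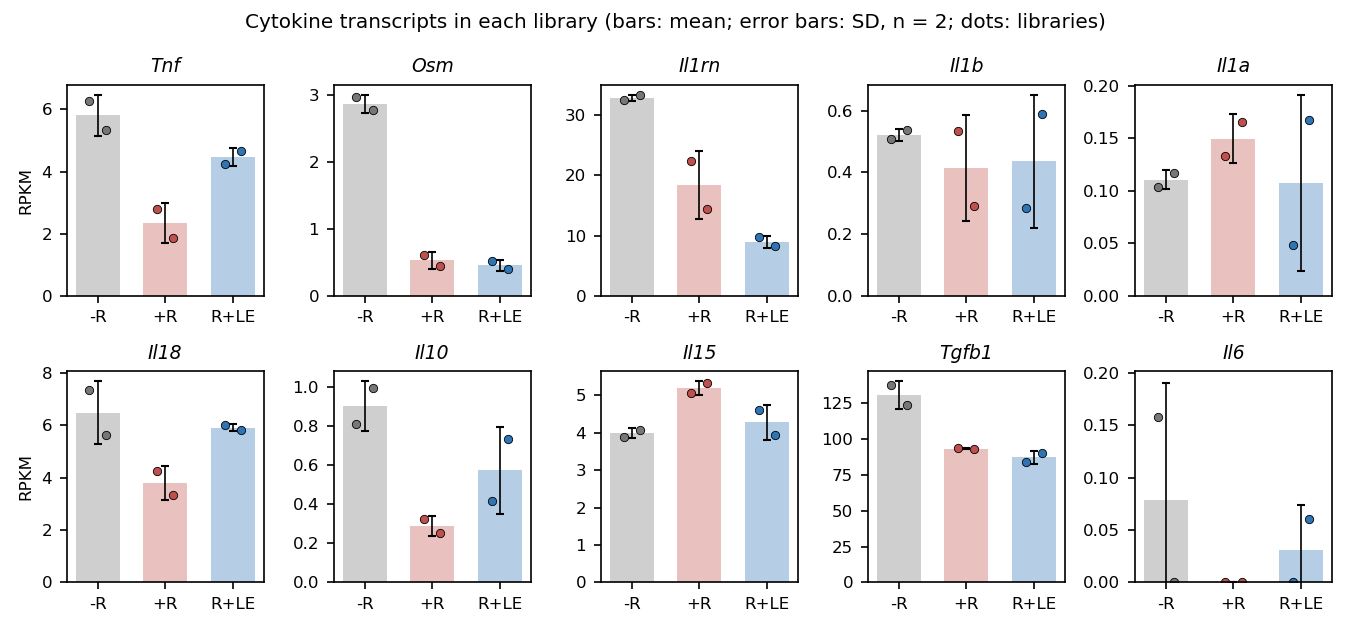
Levels of the 10 cytokine transcripts in RPKM (vertical axis, from 0, a separate scale for each gene) in the -R, +R and R+LE libraries. Bars are means, error bars are SD (n = 2) and dots are libraries. Il1rn steps down from 32.9 to 18.3 and 9.0 RPKM, whereas Tnf is lowest in +R, at 2.33 RPKM.

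In the summed level of the 10 transcripts, -R held 192 and 176 RPKM, +R held 129 and 119 RPKM, and R+LE held 110 and 115 RPKM. Tgfb1 alone made up between 70.1% and 78.6% of this sum in every library, so the sum mainly followed Tgfb1.

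Each comparison was tested by limma on log2(RPKM + 0.5), with Benjamini-Hochberg adjustment over the 11595 genes whose mean was at least 0.5 RPKM. A gene is said here to have passed the test at an adjusted p below 0.05, and is called when it also changed at least 2-fold. Of the 10 cytokines, 7 entered the test. Il1a, Il1b and Il6 lay below the limit. Il10 and Osm entered only through their level in -R, since their means over the other 4 libraries were 0.431 and 0.494 RPKM, so among the genes tested they had to stand higher in -R, and their counts as lower give no support. The fold changes are on the scale of log2(RPKM + 0.5) and understate the change of weakly expressed genes such as Osm and Il10. The median log2 change of all genes was 0.05 for RANKL, -0.05 for LE on top of RANKL and -0.01 for R+LE against -R.

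With RANKL, 6 of the 7 cytokines tested passed the test as lower in +R than in -R (Tnf, Osm, Il1rn, Il18, Il10 and Tgfb1), against 21.5% of all genes. Of these, 2 were called, Tnf and Osm, against 8.92% of all genes. Leaving out Il10 and Osm, 4 of 5 passed as lower and 1, Tnf, was called. The median log2 change was -0.83 over the 7 and -0.70 over these 5. With LE added to RANKL, 2 cytokines passed as higher, Tnf and Il18, against 5.19% of all genes, and 1 passed as lower, Il1rn, against 6.86% of all genes. None of the 7 was called by limma or by voom, a limma method for read counts that was run on the recovered reads, and 3 had an unadjusted p below 0.05. The share of all genes called was 1.46% as higher and 1.78% as lower, and the median log2 change over the 7 cytokines was -0.09. Between R+LE and -R, 3 cytokines passed as lower, Il1rn, Osm and Tgfb1, against 19.0% of all genes, and Il1rn and Osm were called, against 6.36% of all genes. Leaving out Il10 and Osm, 2 of 5 passed as lower and 1, Il1rn, was called. The median was -0.40 over the 7 and -0.34 over these 5. RNA was measured in bulk, so fewer cells that make a transcript and less transcript per cell cannot be told apart in any of these changes. The +R libraries enter both of the first comparisons with opposite sign, and a chance deviation of theirs would move a gene in opposite directions in them.

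**Figure D2:**
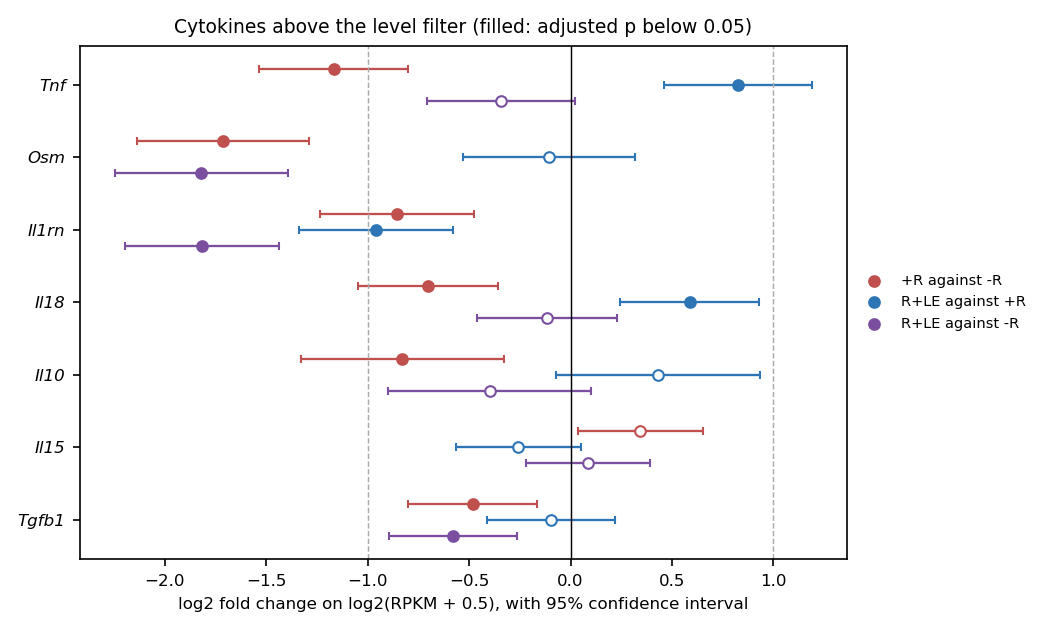
Log2 fold change of the 7 tested cytokines (horizontal axis, on log2(RPKM + 0.5)) with 95% confidence intervals in 3 comparisons. Filled points passed an adjusted p of 0.05 and dashed lines mark 2-fold. Tnf lies at -1.17 for RANKL and at 0.82 for LE on top of RANKL, while Il1rn, like Osm and Tgfb1, lies below 0 in every comparison.

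Tnf, which encodes the cytokine TNF, held 6.28 and 5.33 RPKM in -R, 2.79 and 1.88 RPKM in +R, and 4.25 and 4.67 RPKM in R+LE. The conditions did not overlap, with R+LE between the other two. Tnf lies at chr17:35199367-35202007 on the minus strand (mm10), and its values rested on 304 and 306 reads in -R, against 141 and 95 reads with RANKL and 221 and 234 reads with RANKL and LE. Tnf fell with RANKL by 1.17 on the log2 scale (SE 0.17, 2.25-fold lower, adjusted p = 4.88e-05, limma). With LE it rose by 0.82 (SE 0.17, 1.77-fold, adjusted p = 0.00453), which did not reach 2-fold. R+LE and -R differed by -0.34 (95% confidence interval -0.71 to 0.02, adjusted p = 0.138). The second +R library, at 1.88 RPKM, was the lowest of the 6. Without it the fall with RANKL was 0.93 on the log2 scale, under 2-fold, and the adjusted p of the rise with LE was 0.0509. Without the first +R library the rise with LE was 1.06, which is called.

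Osm, which encodes oncostatin M, a cytokine of the IL-6 family, held 2.97 and 2.78 RPKM in -R, 0.617 and 0.445 RPKM in +R, and 0.516 and 0.397 RPKM in R+LE. Both RANKL-treated conditions were far below -R and overlapped each other. It lies at chr11:4236785-4241026 on the plus strand, and 166 and 184 reads in -R stood against 23 to 36 in the other 4 libraries. Osm fell with RANKL by 1.71 on the log2 scale (SE 0.20, adjusted p = 4.81e-06, limma). It fell the furthest of the 7 in this comparison. It entered the test only through -R and so had to stand higher there, so this rank and its calls as lower give no support. R+LE and +R differed by -0.11 (95% confidence interval -0.53 to 0.32, adjusted p = 0.835), and R+LE was lower than -R by 1.82 on the log2 scale, or 3.53-fold (adjusted p = 4.25e-06). With no limit on low levels, the adjusted p of Osm was 0.00137 for RANKL and 0.00197 for R+LE against -R. The neutrophil markers given above moved with Osm in their sum. Of the 7, S100a9, Mpo and Retnlg were detected in -R and listed at 0 in all 4 RANKL-treated libraries. S100a8, Ly6g and Camp were also detected in both -R libraries and were not at 0 in all of the RANKL-treated ones, with S100a8 at 2.46 RPKM in the first R+LE library against 10.6 and 10.5 RPKM in -R. Elane was listed at 0 in -R and at 0.071 and 0.143 RPKM in +R, from 2 and 4 reads. A count of 0 allowed up to 0.112 and 0.0943 RPKM in the -R libraries, so no direction can be given for Elane. Mpo and Camp were also near the floor, with 4 and 2 reads and 3 and 2 reads in -R. The part of these markers in the fall of Osm and of the other cytokines was not tested.

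Il1rn, which encodes the secreted antagonist that blocks the IL-1 receptor, held 32.5 and 33.2 RPKM in -R, 22.3 and 14.4 RPKM in +R, and 9.72 and 8.28 RPKM in R+LE. It was the only one of the 7 tested cytokines that passed as lower in all 3 comparisons. The counted transcript lies at chr2:24345371-24351491 on the plus strand, with 624 to 2866 reads per library, the most after Tgfb1. Il1rn fell with RANKL by 0.86 on the log2 scale (SE 0.18, 1.81-fold lower, adjusted p = 0.00108, limma), and fell again with LE by 0.96 (SE 0.18, 1.94-fold lower, adjusted p = 0.00207). R+LE lay 1.82 below -R on the log2 scale, or 3.52-fold lower (adjusted p = 1.35e-06). The +R libraries stood further apart than those of the other conditions. Without the first of them the fall with RANKL was 1.17 and called, and that with LE was 0.65, whereas without the second the fall with RANKL was 0.55 and that with LE was 1.27 and called. Without the first R+LE library the fall with LE was 1.07 and called.

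Il1a and Il1b encode the IL-1 cytokines that the product of Il1rn competes with. Il1b, at chr2:129364578-129371139 on the minus strand, held 0.508 and 0.536 RPKM in -R, 0.535 and 0.292 RPKM in +R, and 0.284 and 0.589 RPKM in R+LE. Il1a, at chr2:129299610-129309972 on the minus strand, held 0.104 and 0.117 RPKM in -R, 0.133 and 0.166 RPKM in +R, and 0.048 and 0.167 RPKM in R+LE. Both were at low levels, with libraries of the 3 conditions overlapping for Il1b and, for Il1a, with R+LE spanning the others. Over both libraries of a condition, Il1b had 45 reads in -R, 34 reads in +R, then 36 reads in R+LE, and Il1a had 14, 18 and 13 reads. The exact 95% Poisson intervals of the pooled Il1b level, which cover counting error only, were 0.382 to 0.700 RPKM, 0.286 to 0.578 RPKM and 0.304 to 0.600 RPKM. They overlapped, and differences between conditions were not detectable at this depth. When all 18427 genes with any reads were tested, no comparison of either gene had an adjusted p below 0.578 (limma). Reads were counted without regard to strand, and 222 bp of Il1a exons are shared with the opposite transcript Gm14023 and 25 bp of Il1b exons with Il1bos, so that these reads could not be told apart. The ratio of Il1rn to the sum of Il1a and Il1b was 53.1 and 50.9 without RANKL, 33.4 and 31.4 with RANKL, and 29.3 and 10.96 with RANKL and LE. The last ratio rested on 34 reads of Il1a and Il1b and the one before on 15.

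Il18, which encodes another IL-1 family cytokine, held 7.33 and 5.62 RPKM in -R, 4.24 and 3.32 RPKM in +R, and 5.99 and 5.80 RPKM in R+LE. The +R libraries were below all others, and R+LE lay within the range of -R. It lies at chr9:50554700-50581841 on the plus strand and had 116 to 245 reads per library. Il18 fell with RANKL by 0.70 on the log2 scale (SE 0.16, 1.63-fold lower, adjusted p = 0.0023, limma) and rose with LE by 0.59 (SE 0.16, 1.503-fold, adjusted p = 0.0262). R+LE and -R differed by -0.11 (95% confidence interval -0.46 to 0.23, adjusted p = 0.623). The rise with LE no longer passed without the second +R library (adjusted p = 0.209), without either R+LE library (0.0723 and 0.0665) or with no limit on low levels (0.172), and the fall with RANKL no longer passed without the first -R library (0.0539).

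The 250 bases before the annotated start of a transcript are shown for Tnf and Il18, which fell with RANKL and rose with LE, and for Il1rn, which fell in both, so that these upstream windows can be compared. The sequences are from RefSeq (GRCm38.p6, the build also called mm10), which matched 7 of the 10 cytokines, and are written 5′ to 3′ on the strand of the gene. Matches, on either strand, to the NF-κB consensus, the AP-1 motif TGANTCA, the antioxidant response element TGACNNNGC and the TATA box TATAAA are in capitals. The AP-1 and antioxidant response motifs can match the same bases. Tnf is chr17:35202008-35202257 (minus strand), Il18 is chr9:50554450-50554699 (plus strand), Il1rn is chr2:24345121-24345370 (plus strand) before the counted start, and Il1rn upstream is chr2:24336610-24336859 before a start that lies 8511 bp upstream of the counted one.
Tnf: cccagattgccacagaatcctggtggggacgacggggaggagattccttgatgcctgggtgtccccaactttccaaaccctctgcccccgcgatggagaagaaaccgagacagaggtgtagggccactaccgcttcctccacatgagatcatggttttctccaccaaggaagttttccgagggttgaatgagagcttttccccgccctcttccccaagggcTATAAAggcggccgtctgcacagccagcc
Il18: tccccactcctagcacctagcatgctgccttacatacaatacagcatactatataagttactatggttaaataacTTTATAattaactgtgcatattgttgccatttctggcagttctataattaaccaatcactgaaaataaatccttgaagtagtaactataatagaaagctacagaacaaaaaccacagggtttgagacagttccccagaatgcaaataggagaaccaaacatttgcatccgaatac
Il1rn: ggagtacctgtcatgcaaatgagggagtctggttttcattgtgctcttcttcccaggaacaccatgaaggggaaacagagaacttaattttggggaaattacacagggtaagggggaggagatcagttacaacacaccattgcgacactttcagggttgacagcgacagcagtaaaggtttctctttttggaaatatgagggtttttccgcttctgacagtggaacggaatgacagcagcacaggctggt
Il1rn upstream: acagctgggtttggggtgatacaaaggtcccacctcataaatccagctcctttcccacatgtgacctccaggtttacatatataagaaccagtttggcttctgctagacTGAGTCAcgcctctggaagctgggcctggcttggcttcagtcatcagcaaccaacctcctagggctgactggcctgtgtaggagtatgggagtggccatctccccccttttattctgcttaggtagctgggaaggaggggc

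The Tnf window held a TATA box at -29 to -24 from the start, and the Il18 window, with a GC content of 35.6%, held one only on the opposite strand at -175 to -170. The counted Il1rn window held none of the 4 motifs, and the upstream one held an AP-1 motif at -141 to -135. A further Il1rn window, not shown, lies before a start 80 bp upstream of the counted one and also held none. Among the other cytokines, NF-κB matches lay at -140 to -131 of Tgfb1, whose window had a GC content of 75.2%, and at -44 to -35 of Il6. Il1a and Il1b had TATA boxes at -32 to -27 and -31 to -26, and AP-1 motifs lay at -12 to -6 of Il1a and -249 to -243 of Il6. Of all 32536 distinct RefSeq windows of this length, 7.28% held the NF-κB consensus, 6.73% the AP-1 motif, 10.2% the antioxidant response element and 12.3% the TATA box. A match is only a description of these letters.

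Il10, which encodes a cytokine that restrains macrophage activation, held 0.812 and 0.994 RPKM in -R, 0.326 and 0.251 RPKM in +R, and 0.415 and 0.733 RPKM in R+LE. The conditions did not overlap, and R+LE lay between the others. It lies at chr1:131019845-131024970 on the plus strand, and its values rested on 31 and 45 reads in -R, against 13 and 10 reads with RANKL and 17 and 29 reads with RANKL and LE. Il10 fell with RANKL by 0.83 on the log2 scale (SE 0.23, adjusted p = 0.00933, limma), and by 1.37 with a pseudocount of 0.1 and 1.62 in the voom fit, both of which called it. Il10 entered these tests only through -R, so its passing as lower gives no support. With no limit on low levels the adjusted p was 0.0231, and without the second -R library it was 0.0831. R+LE differed from +R by 0.43 (95% confidence interval -0.07 to 0.93, adjusted p = 0.301) and from -R by -0.40 (-0.90 to 0.10, adjusted p = 0.210). The ratio of Tnf to Il10 was 7.73 and 5.36 without RANKL, 8.56 and 7.48 with RANKL, and 10.2 and 6.37 with RANKL and LE, and all 3 ranges overlapped.

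Tgfb1, which encodes TGF-β1, held 138 and 124 RPKM in -R, 93.4 and 93.0 RPKM in +R, and 84.0 and 90.6 RPKM in R+LE. All 4 RANKL-treated libraries were below the -R libraries. It lies at chr7:25687002-25705077 on the plus strand and had 5744 to 9338 reads per library, by far the most of the 10. Tgfb1 fell with RANKL by 0.48 on the log2 scale (SE 0.15, 1.40-fold lower, adjusted p = 0.0146, limma) and R+LE was 0.58 below -R (1.49-fold lower, adjusted p = 0.00695). R+LE and +R differed by -0.09 (95% confidence interval -0.41 to 0.22, adjusted p = 0.791). The fall with RANKL no longer passed when any 1 of the 4 libraries compared was left out, with adjusted p of 0.153 and 0.056 without the first and the second -R library and 0.0956 and 0.0963 without the first and the second +R library, and the difference of R+LE from -R had an adjusted p of 0.111 without the first -R library.

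Il15, which encodes a cytokine that sustains lymphocytes and signals through the common gamma chain, was the only cytokine of the 7 with a higher mean in +R than in -R. It held 3.90 and 4.08 RPKM in -R, 5.07 and 5.33 RPKM in +R, and 4.61 and 3.95 RPKM in R+LE. The +R libraries were above all others, and those of R+LE overlapped the -R libraries. It lies at chr8:82331624-82402586 on the minus strand and had 145 to 207 reads per library. The difference of +R from -R was 0.34 on the log2 scale (95% confidence interval 0.04 to 0.65), with an adjusted p of 0.0644 (limma). It passed after centring on the median (0.0403), after quantile normalization (0.0441) and with the ribosomal Rn45s entry left out of the depth (0.0304). None of the other alternatives passed it, among them a replicate block (0.0611), no limit on low levels (0.111) and the voom fit (0.153). R+LE differed from +R by -0.26 (-0.57 to 0.05, adjusted p = 0.316) and from -R by 0.09 (-0.22 to 0.39, adjusted p = 0.687).

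Il6, which encodes IL-6 and lies at chr5:30013114-30019975 on the plus strand, was at 0.158 and 0 RPKM in -R, 0 in both +R libraries, and 0 and 0.061 RPKM in R+LE. All of its signal came from 5 reads in 1 -R library and 2 reads in 1 R+LE library. A count of 0 allowed up to 0.0908 RPKM in each +R library, so Il6 was at most barely detected in all conditions and no difference was detectable.

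Each cytokine acts through receptors, and 12 of 19 receptor subunits for these ligands were expressed above the limit. With RANKL, 3 receptors were called lower and 1 higher, where 8.92% and 6.58% of all genes were, and their median log2 change was -0.34. Tnfrsf1b, the second TNF receptor, held 25.9 and 26.4 RPKM in -R, 7.08 and 5.68 RPKM in +R, and 11.1 and 10.1 RPKM in R+LE. It fell with RANKL by 1.96 on the log2 scale (adjusted p = 2.99e-08, limma) and rose with LE by 0.70 (adjusted p = 0.00425), the same order of conditions as Tnf. Tnfrsf1a, the first TNF receptor, fell by 0.67 with RANKL (adjusted p = 0.00115) and differed by 0.41 with LE (adjusted p = 0.0751). It was chosen after its values were seen.

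Both chains of the IL-10 receptor fell with RANKL. Il10ra held 14.6 and 13.2 RPKM in -R, 4.44 and 4.96 RPKM in +R, and 7.13 and 7.15 RPKM in R+LE, a fall of 1.47 with RANKL (adjusted p = 4.56e-07, limma) and a rise of 0.56 with LE (adjusted p = 0.0138). Il10rb, the third receptor called lower and named for that reason after its values were seen, fell by 1.28 (adjusted p = 4.03e-06). Il2rg, the common gamma chain used by the IL-15 receptor, rose from 40.1 and 46.3 RPKM in -R to 103 and 86.0 RPKM in +R (log2 change 1.12, adjusted p = 3.17e-05), and held 108 and 94.5 RPKM in R+LE. The other listed subunits for IL-15 were low or absent. Il15ra had means of 0.824, 1.43 and 1.56 RPKM in -R, +R and R+LE, and Il2rb was at 0 in all 6 libraries. Both were named after their values were seen.

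With LE, 1 receptor was called higher and 1 lower, where 1.46% and 1.78% of all genes were. Il18rap, a signalling subunit of the IL-18 receptor, held 0.482 and 0.418 RPKM in -R, 0.434 and 0.388 RPKM in +R, and 2.44 and 2.01 RPKM in R+LE. It rose with LE by 1.58 on the log2 scale (adjusted p = 0.000104, limma), and it passed the limit only through R+LE. Among the genes tested it therefore had to stand higher in R+LE, and its call gives no support. Of the other 11 receptors, 0 were called higher with LE and 1 lower. Il18r1, the subunit that binds IL-18, lay below the limit. Tgfbr1, the signalling receptor for TGF-β, held 17.8 and 22.2 RPKM in -R, 30.3 and 27.4 RPKM in +R, and 15.8 and 12.6 RPKM in R+LE. It was lower with LE, at a log2 change of -1.004 (SE 0.16, adjusted p = 0.000534), just past 2-fold. Tgfbr2, its partner, chosen after its values were seen, fell by 0.59 with LE (adjusted p = 0.00836), whereas Tgfb1 itself differed by -0.09. Il1r1 and Il1r2, which bind IL-1, and Osmr and Lifr, which bind oncostatin M with Il6st, lay below the limit.

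**Figure D3:**
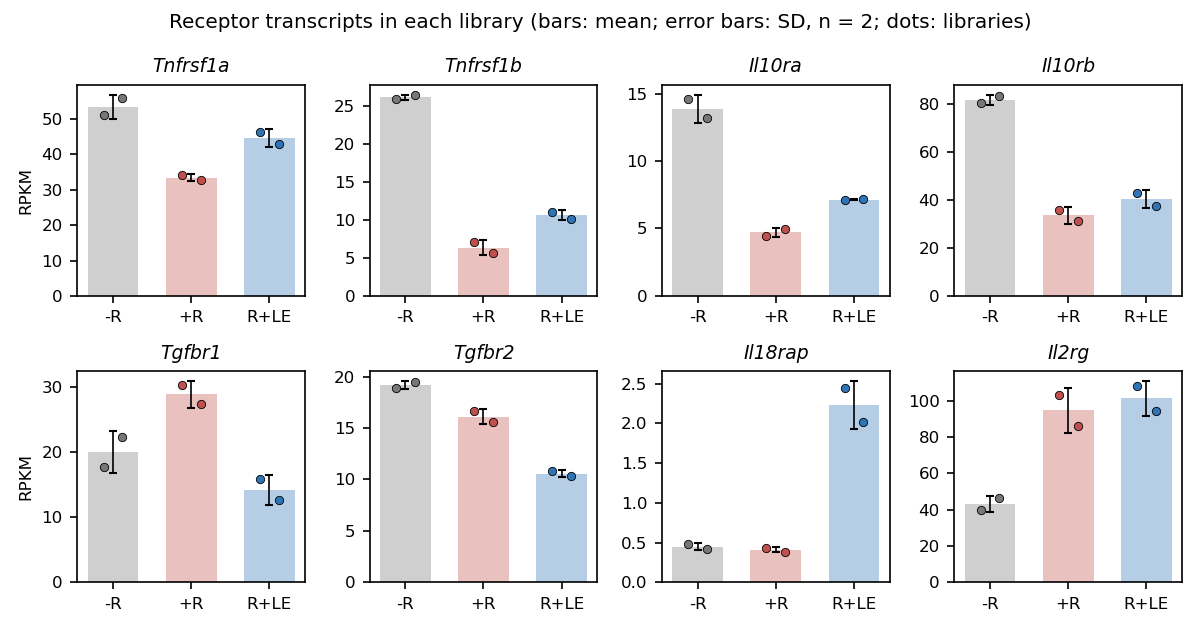
Levels of 8 receptor subunits in RPKM (vertical axis, from 0, a separate scale for each gene) in the -R, +R and R+LE libraries. Bars are means, error bars are SD (n = 2) and dots are libraries. Tnfrsf1b and Il10ra are lowest in +R, whereas Il18rap is high only in R+LE, at 2.44 and 2.01 RPKM.

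Of 20 genes for cytokine processing, release and soluble control, 17 were tested. With RANKL, 6 were called lower and 3 higher, where 8.92% and 6.58% of all genes were, and with LE 1 was called, as higher, where 1.46% of all genes were. Nlrp3, the sensor of the inflammasome that activates caspase-1, held 16.0 and 17.4 RPKM in -R, 4.42 and 4.38 RPKM in +R, and 9.45 and 9.74 RPKM in R+LE. It fell with RANKL by 1.81 on the log2 scale (adjusted p = 3.24e-08, limma) and rose with LE by 1.04 (adjusted p = 8.84e-05). Casp1, which encodes caspase-1 and was chosen after its values were seen, fell by 0.59 (adjusted p = 0.00357) and rose by 0.49 (adjusted p = 0.0361). Other inflammasome genes of the list, also named after their values were seen, moved less evenly. Nlrc4 fell by 0.60 with RANKL (adjusted p = 0.00823) and differed by 0.42 with LE (0.133). Pycard differed by 0.08 and 0.03 (0.681 and 0.943), and Aim2 by -0.09 and 0.09 (0.660 and 0.790). Gsdmd, which encodes the pore protein that releases IL-1β and IL-18, went the other way from Nlrp3 and Casp1. It held 24.9 and 23.7 RPKM in -R, 95.3 and 92.5 RPKM in +R, and 70.8 and 61.8 RPKM in R+LE, a rise of 1.93 with RANKL (adjusted p = 3.39e-08) and a fall of 0.50 with LE (adjusted p = 0.0314). Casp4, the sensor caspase that also cuts this pore protein, rose by 1.55 with RANKL (adjusted p = 7.44e-07) and fell by 0.66 with LE (adjusted p = 0.00859).

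For TGF-β1, Thbs1, which encodes the latency-opening protein thrombospondin-1, held 6.08 and 7.83 RPKM in -R, 1.81 and 1.35 RPKM in +R, and 3.10 and 2.85 RPKM in R+LE. It fell with RANKL by 1.84 on the log2 scale (adjusted p = 3.86e-07, limma) and rose with LE by 0.75 (adjusted p = 0.00844). The third processing gene called higher with RANKL was Ltbp2, of the latent TGF-β binding protein family, at 1.44 (adjusted p = 1.39e-05). Its level was low, with means of 0.454 RPKM in -R and 2.09 RPKM in +R. Nrros, Furin and Rhbdf2 were also called lower with RANKL, at -1.48 (adjusted p = 4.18e-07), -1.18 (7.79e-06) and -1.15 (6.18e-06). They did not pass with LE. Il18bp, the soluble protein that binds and blocks IL-18, fell by 1.46 with RANKL (adjusted p = 0.000113) and differed by -0.02 with LE (95% confidence interval -0.52 to 0.48). Ltbp2, Nrros, Furin, Rhbdf2 and Il18bp were chosen after their values were seen.

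**Figure D4:**
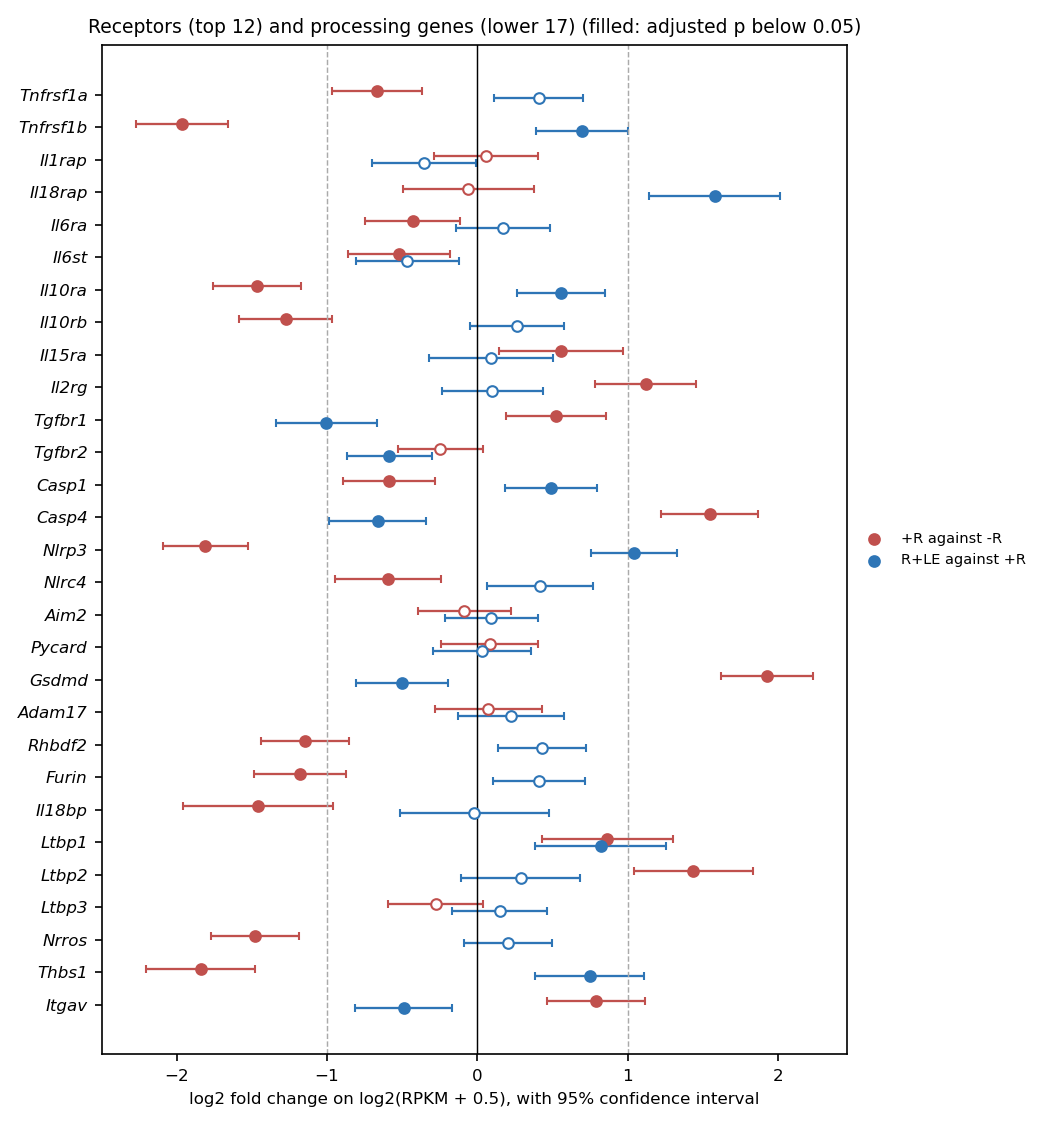
Log2 fold change (horizontal axis, on log2(RPKM + 0.5)) with 95% confidence intervals for the 12 tested receptor subunits and the 17 tested processing genes, for +R against -R and R+LE against +R. Filled points passed an adjusted p of 0.05 and dashed lines mark 2-fold. Nlrp3 lies at -1.81 for RANKL and 1.04 for LE, and Gsdmd at 1.93 and -0.50.

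Among 17 feedback inhibitors of cytokine signals, 15 were tested. With RANKL, 5 were called lower and 4 higher, against 8.92% and 6.58% of all genes. Smad7 and Smad6, which block signalling of the TGF-β family, fell, with log2 changes of -2.22 (adjusted p = 1.8e-08, limma) and -2.20 (adjusted p = 1.48e-07), and the TGF-β repressors Ski and Skil fell by 1.32 and 1.25. The other gene called lower was Zfp36, whose product promotes decay of Tnf mRNA, at -1.69 (adjusted p = 1.53e-07). The inhibitors of NF-κB signalling Nfkbia, Tnip1 and Tnfaip3 rose by 1.80, 1.69 and 1.44, and Socs3, an inhibitor of IL-6 family signals, rose by 1.66. Ski, Skil, Zfp36, Tnfaip3 and Socs3 were named after their values were seen, to complete these counts. With LE, Smad6 was the 1 gene called, against 1.46% of all genes called higher, and it rose by 1.17 (adjusted p = 0.000587), from 1.09 and 1.11 RPKM in +R to 2.88 and 3.32 RPKM in R+LE.

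Of 36 other cytokines, 11 were tested and 25 lay below the limit. With RANKL, 1 was called lower and 1 higher, near the 8.92% and 6.58% of all genes. Tnfsf8 (CD30 ligand) was called lower, from 1.81 and 2.23 RPKM to 0.308 and 0.176 RPKM, and Il34, an alternative ligand of the M-CSF receptor, was called higher, from 0.02 and 0.033 RPKM to 1.17 and 0.997 RPKM. Tnfsf8 passed the limit only through -R and Il34 only through +R, so each had to differ, and neither of the 2 called is among the 8 genes of the list that passed without resting on 1 condition. With LE, 2 were called, both as higher, where 1.46% of all genes were. Tnfsf14 (LIGHT) held 0.699 and 0.612 RPKM in +R and 2.30 and 2.26 RPKM in R+LE, a rise of 1.27 on the log2 scale (adjusted p = 0.000283, limma). Ebi3, a subunit shared by IL-27 and IL-35, held 9.32 and 6.58 RPKM in +R and 16.7 and 16.3 RPKM in R+LE, a rise of 1.03 (adjusted p = 0.000452). Both levels in R+LE were also above those in -R, where Tnfsf14 held 1.13 and 1.08 RPKM and Ebi3 held 11.7 and 11.1 RPKM.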

How the data were processed

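RNA-seq of 6 libraries, 2 for each of 3 conditions, was analysed, with groups and replicate numbers from the sample labels. The authors obtained paired reads of 100 bp, aligned them to mm10 with TopHat (the submitters' processing notes name HISAT2) and counted exon reads of 1 transcript per gene on either strand with HOMER, versions not given in the sources used here. They deposited RPKM, under column titles that say FPKM. Reads of paralogs or of other transcripts of a gene can thus be missed. The authors' other columns give lengths and positions.

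The members and gene lists were chosen with earlier results of these data known. RPKM were tested on log2(RPKM + 0.5), since they are not counts, with limma version 3.58.1 in R 4.3.3 (group means of all 6 libraries, moderated variance with trend), over the 11595 genes averaging 0.5 RPKM or more, with Benjamini-Hochberg adjustment. An exact permutation test of 2 against 2 libraries cannot go below p = 0.333. Called genes had an adjusted p below 0.05 and a change of at least 2-fold, as in the study. Named genes were the 10 cytokines and, from each list, up to 2 called genes with the largest rise and 2 with the largest fall after RANKL and after LE. Steps of 1 read, found for at least 99.99% of values checked, gave depths of 29390204 to 34846361 mapped reads. A count of 0 allows up to 3 reads. Such limits and intervals cover counting error only. The fit was tested on simulated data. Alternatives were other pseudocounts, filters, scalings and groups in the fit, a replicate block, voom on recovered reads, each library left out and, chosen after seeing the data, Rn45s left out of the depth. Python 3.11.15, numpy 2.4.6, pandas 2.3.3, scipy 1.17.1 and matplotlib 3.10.9 were used.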

Additional observations from a re-analysis of the deposited data

How the results depend on the processing

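Of 354 recomputed changes of single cytokines, 344 kept their direction and their side of the call, 6 gained a call, 1 lost it and 3 reversed. Many of these could not change direction. Other filters, the variance trend, the groups in the fit, the replicate block and leaving out a library of the condition not compared alter only the p-value. A change that was not called also counts as kept where it no longer passed the test, so the count overstates how stable the results were. With RANKL, the log2 change of Tnf was -1.40 without the first +R library and -0.93, under 2-fold, without the second. That of Il1rn was -1.17 and -0.55 in the same fits. With LE, Tnf reached 1.06 without the first +R library, and Il1rn reached -1.27 without the second. Osm stayed beyond 2-fold with RANKL in every alternative, but it entered the test only through -R and gives no support. The reversals were of small differences. Leaving out 1 library gave -0.227 to 0.0147 for Osm in R+LE against +R, -0.0144 to 0.186 for Il15 and -0.292 to 0.062 for Il18, both in R+LE against -R. With no limit on low levels, where 18427 genes shared the adjustment, the changes with LE had adjusted p of 0.0887 for Il1rn, 0.106 for Tnf and 0.172 for Il18 (limma). Whether the replicate numbers pair the libraries was not stated, and the correlations of same-numbered deviations were -0.05, 0.11 and 0.25. With the replicate number as a replicate block, 2, 0 and 2 cytokines were called in the 3 comparisons, as without it. Osm is among those called in the first and the last. A pseudocount of 0.1 and voom each called 3 cytokines with RANKL, Tnf, Osm and Il10. Of these, Osm and Il10 entered the test only through -R. Depth limits Il1a, Il1b and Il6.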
